A study of Mus musculus with 10 samples.

Results

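The genes examined are the 7 that code for the synthesis, vesicular loading, uptake and breakdown of the inhibitory transmitter GABA: Gad1, Gad2, Slc32a1, Slc6a11, Slc6a13, Abat and Aldh5a1. They were taken by gene symbol, and 7 of 7 were found among the 18464 genes of the deposited table and passed the filter on low counts that kept 17672 genes. RNA with poly(A) tails was sequenced from Aldh1l1-NuTRAP mice that the series describes as naive, from ventral midbrain tissue holding the ventral tegmental area and the substantia nigra pars compacta. In this strain cells that use the Aldh1l1 promoter, in brain mostly astrocytes, carry a tagged ribosome, and translating ribosome affinity purification (TRAP) recovers the RNA bound to it. The 2 groups were 5 input libraries, labelled as holding CNS cell types, and 5 libraries of the purified fraction, labelled astrocytes (the astrocyte fraction). No drug, age or sex separates the groups in the labels, and both groups carry the same transgenes. Titles number the libraries 88, 92, 976, 981 and 982, and each number occurs once in the input and once in the fraction, so libraries are named by group and number. The labels do not say that the numbers are separate mice, so the p-values speak only for the spread among these samples, which may be technical.

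GABA is made from glutamate by the glutamate decarboxylases Gad1 and Gad2 and is loaded into synaptic vesicles by Slc32a1, the vesicular GABA transporter. Plasma membrane transporters of the Slc6 family take it back up, Slc6a11 mainly into astrocytes, while Slc6a13 is known from the leptomeninges, blood vessels, liver and kidney. In mitochondria Abat, GABA transaminase, turns GABA into succinic semialdehyde, and Aldh5a1 oxidises that to succinate. In the ventral midbrain GABA neurons of the substantia nigra pars reticulata and the ventral tegmental area inhibit the dopamine neurons beside them.

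Library totals ran from 21812193 to 30878894 expected counts in the input and from 24479136 to 26924406 in 4 fraction libraries, with 3845554 in fraction 92. All 15 astrocyte markers tested were higher in the fraction (median log2 fold change 3.06) and all 15 pan-neuronal markers were lower (median -2.37), by edgeR's quasi-likelihood test at a Benjamini-Hochberg adjusted p under 0.05. Neuronal RNA was still measured in the fraction: the summed level of those neuronal markers in CPM (counts scaled to a common library size) was 9074 to 11038 in input libraries and 1843 to 2382 in fraction libraries, and none of the 15 was at 0 in any library. Numbers 976 and 982 stood apart by choroid plexus markers, whose summed level was 3290 and 681 CPM in their inputs and 12680 and 2658 CPM in their fractions, against 26.7 to 109 CPM in the other 6 libraries. Results without these numbers are given where a call or a direction differed.

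The synthesis and vesicle genes were lower in the astrocyte fraction, and the astrocytic uptake gene Slc6a11 and the breakdown genes were higher. Gad1, Gad2 and Slc32a1 were present at 18.0%, 19.8% and 18.2% of their input level, while Slc6a11 rose 8.03-fold, Abat 4.26-fold and Aldh5a1 2.93-fold. Slc6a13 did not pass the test. The members thus counted 3 higher, 3 lower and 1 not called, where 33.1% of all tested genes were called higher, 37.5% lower and 70.6% in either direction. The input and fraction ranges did not overlap for 6 of the 7 members, against 58.2% of all tested genes, and neither count is read as particular to the members. The median log2 fold change was 0.48 over the members and -0.06 over all tested genes. With 3 members on each side, that median is the value of Slc6a13, and without the library fraction 88 it was -2.09. These values compare RNA recovered with the tagged ribosome against RNA of the bulk input, and are not changes in cell number or expression. Share of cells, RNA per cell, binding to ribosomes and carried-over RNA cannot be told apart in any of them.

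**Figure D1:**
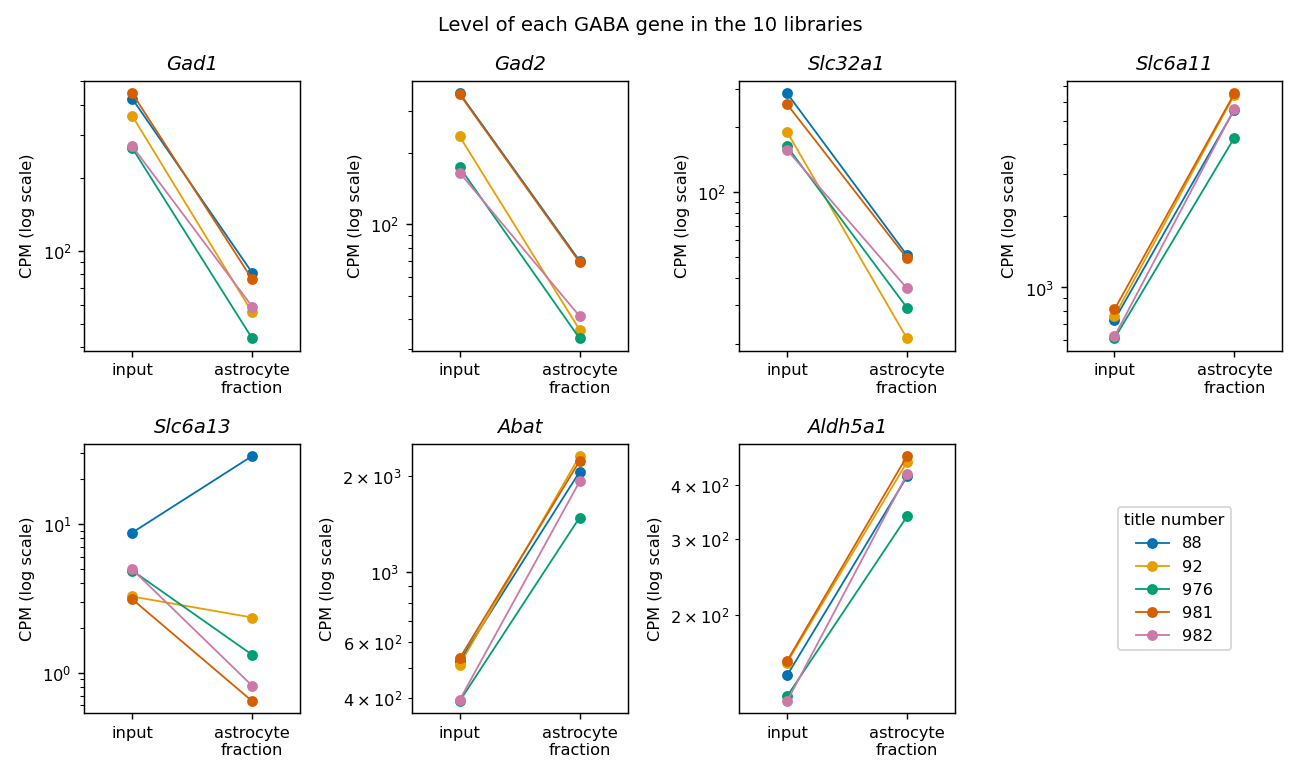
Level of each of the 7 members in every library, on a log CPM axis with its own range for each gene; each point is 1 library, and a line joins the input and astrocyte fraction libraries of the same title number. Gad1, Gad2 and Slc32a1 lie lower in every fraction library than in any input library and Slc6a11, Abat and Aldh5a1 higher, while the Slc6a13 points of the groups overlap and fraction 88 stands above the others at 28.8 CPM.

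The sequences before the start sites of 3 members are shown because these genes mark the opposite ends of the pattern, transmitter synthesis and astrocytic uptake. They are the 250 bases before the annotated start from RefSeq (GRCm38.p6, plus strand), 5′ to 3′. The deposited gene coordinates begin earlier, at 70553072 for Gad1 and 22622205 for Gad2. The Gad1 window therefore lies wholly, and the Gad2 window partly, inside the gene as deposited. Capitals mark matches on either strand to the TATA-type motif TATAAA, to the GC box GGGCGG and to TTGGCA, a site of nuclear factor I. Gad1 is read at chr2:70561879-70562128, Gad2 at chr2:22622077-22622326 and Slc6a11 at chr6:114130991-114131240.
Gad1: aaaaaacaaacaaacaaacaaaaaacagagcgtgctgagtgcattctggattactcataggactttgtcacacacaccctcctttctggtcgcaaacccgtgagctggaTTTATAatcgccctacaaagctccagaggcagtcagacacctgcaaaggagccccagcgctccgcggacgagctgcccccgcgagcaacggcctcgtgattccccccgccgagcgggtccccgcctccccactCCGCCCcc
Gad2: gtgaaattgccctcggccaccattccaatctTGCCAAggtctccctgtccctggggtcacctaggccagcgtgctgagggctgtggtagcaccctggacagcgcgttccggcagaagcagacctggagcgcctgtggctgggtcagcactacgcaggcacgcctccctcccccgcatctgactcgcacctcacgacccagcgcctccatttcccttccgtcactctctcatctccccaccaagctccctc
Slc6a11: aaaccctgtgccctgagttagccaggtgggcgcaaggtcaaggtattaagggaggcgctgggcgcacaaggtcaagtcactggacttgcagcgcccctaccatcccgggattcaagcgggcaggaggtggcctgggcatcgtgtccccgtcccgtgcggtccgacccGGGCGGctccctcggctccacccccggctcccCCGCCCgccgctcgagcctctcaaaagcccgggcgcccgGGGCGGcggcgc

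Motifs were counted on both strands over 300 bases, the 250 before and 50 after the start. Gad1 had 1 match to TATAAA, present in 13.6% of 32851 mouse promoters, and 1 to GGGCGG, present in 35.7%. Gad2 had neither and had 1 match to TTGGCA, present in 14.1%. Slc6a11 had 4 matches to GGGCGG, 3 of them before the start, and its 300 bases were 72.3% G and C with 32 CG pairs, against 60.0% with 21 CG pairs for Gad1 and 61.3% with 14 for Gad2. The full palindromic site of nuclear factor I had no match here. The same was true of the E-box CAGCTG, of the GATA motif GATAAG, of the SOX motif ACAATGG and of the cyclic AMP response element TGACGTCA, which 16.3%, 7.44%, 3.66% and 1.79% of promoters hold. The Slc32a1 and Aldh5a1 windows held none of the 8 motifs. These matches describe letters only.

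Gad1 (ENSMUSG00000070880, mm10 chromosome 2, 70553072 to 70602014, plus strand) codes for the decarboxylase that supplies much of the GABA of the brain. Its level in input 88, 92, 976, 981 and 982 was 423, 360, 265, 446 and 270 CPM. In the fraction libraries of the same numbers it was 81.2, 55.8, 43.5, 76.4 and 58.9 CPM. The highest fraction library thus stood below the lowest input library, and within a number the fraction held 15.5% to 21.8% of the input level. Its mean fell from 353 ± 84.1 to 63.1 ± 15.5 CPM (SD, n = 5 each), a difference of -2.48 ± 0.23 on the log2 scale (SE; edgeR's quasi-likelihood test, adjusted p = 5.17e-07).

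Gad2 (ENSMUSG00000026787, chromosome 2, 22622205 to 22693874, plus strand) codes for the decarboxylase tied to synaptic vesicles. Its level in the input was 355, 234, 174, 352 and 165 CPM in the same order of numbers. In the fraction it was 70.3, 36.1, 33.2, 69.4 and 41.2 CPM. Numbers 88 and 981 were the highest in both groups, and the 2 groups did not overlap. Its mean fell from 256 ± 93.0 to 50.03 ± 18.3 CPM (SD, n = 5 each), a difference of -2.34 ± 0.33 on the log2 scale (SE; edgeR's quasi-likelihood test, adjusted p = 6.43e-05).

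Slc32a1 (ENSMUSG00000037771, chromosome 2, 158610767 to 158615748, plus strand) is the transporter that a cell needs to release GABA from vesicles. Its level in the input was 287, 190, 163, 255 and 157 CPM. In the fraction it was 51.2, 21.1, 29.3, 49.5 and 36.0 CPM. The groups did not overlap, and fraction 92, the shallowest library, was lowest with 72 counts. Its mean fell from 210 ± 57.8 to 37.4 ± 12.9 CPM (SD, n = 5 each), a difference of -2.46 ± 0.30 on the log2 scale (SE; edgeR's quasi-likelihood test, adjusted p = 6.85e-06). Of its exon bases 24.9% overlap Gm14205 on the opposite strand, and no source used here gives the strand setting of the counting, so reads of the 2 genes cannot be told apart there.

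Ratios among the 3 genes, and of Gad1 to a general neuronal gene, did not pass a test between the groups. Within a library Gad1 stood at 1.42 times Gad2 in the input and 1.30 times in the fraction (log2 difference -0.13, exact two-sided permutation p = 0.325, adjusted p = 0.465 over 10 ratios). The ratio of Slc32a1 to Gad1 differed by -0.04 on the log2 scale (exact permutation p = 0.913, adjusted p = 0.913) and that of Slc32a1 to Gad2 by -0.17 (exact permutation p = 0.230, adjusted p = 0.384). The ratio of Gad1 to Snap25, a synaptic protein of neurons at large, differed by -0.29 (exact permutation p = 0.389, adjusted p = 0.486), with SDs of 0.50 in the input and 0.58 in the fraction. Missing the threshold does not show that these 4 ratios were equal. Compared within title numbers, the ratio of Slc32a1 to Gad2 was lower in the fraction in 5 of 5 (exact sign-flip permutation p = 0.0625, the smallest that 5 pairs allow, adjusted p = 0.104). The median retention of the 15 pan-neuronal markers was 19.3% of input and that of 8 dopamine neuron markers, all called lower, was 18.5%, beside the 18.0% to 19.8% of the 3 GABA genes. Retention differed for other cell types. The median was 5.33% for microglia, 7.59% for mature oligodendrocyte and 10.3% for oligodendrocyte precursor markers. It was 17.3% for red blood cell, 33.8% for pericyte and smooth muscle and 84.9% for endothelial markers. The part of neuronal RNA carried into the fraction in the levels of these 3 genes there was not tested.

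Slc6a11 (ENSMUSG00000030307, chromosome 6, 114131241 to 114249952, plus strand) is the GABA transporter of astrocyte processes. Its level in the input was 731, 759, 612, 809 and 623 CPM. In the fraction it was 5566, 6436, 4249, 6512 and 5611 CPM. The lowest fraction library was above the highest input library, and the fraction held 6.95 to 8.999 times the input within a number. Its mean rose from 707 ± 86.3 to 5675 ± 912 CPM (SD, n = 5 each), a difference of 3.005 ± 0.137 on the log2 scale (SE; edgeR's quasi-likelihood test, adjusted p = 5.94e-10). In the fraction Slc6a11 was the 11th most abundant of all tested genes by CPM, and it ranked 102nd in the input.

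Against Slc1a3, the astrocytic glutamate transporter, the ratio of Slc6a11 differed by -0.03 on the log2 scale (exact permutation p = 0.825, adjusted p = 0.913).

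**Figure D2:**
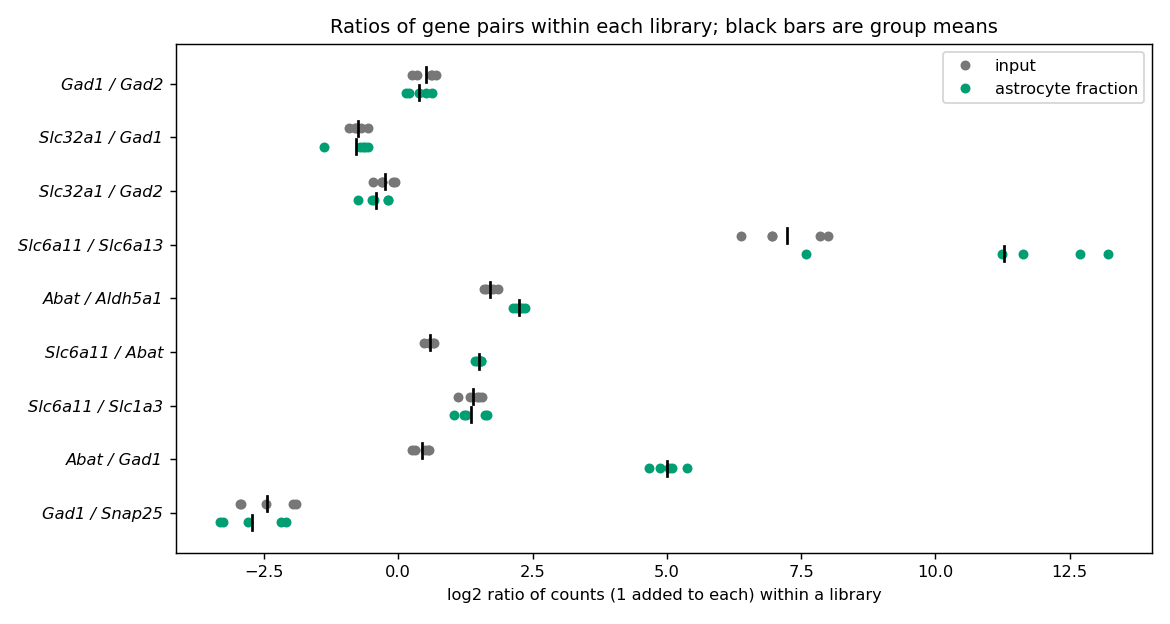
Log2 ratios between members, and of members to Slc1a3 and Snap25, within each library (horizontal axis, log2 of counts with 1 added); each point is 1 input or astrocyte fraction library and black bars are group means. The ratios of Abat to Aldh5a1, Slc6a11 to Abat and Abat to Gad1 are higher in every fraction library than in any input library, and the ratios among Gad1, Gad2 and Slc32a1 overlap.

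Abat (ENSMUSG00000057880, chromosome 16, 8513429 to 8621568, plus strand) codes for GABA transaminase, the first step of GABA breakdown. Its level in the input was 524, 510, 392, 535 and 396 CPM. In the fraction it was 2067, 2317, 1484, 2236 and 1926 CPM. The groups were fully apart, and the fraction held 3.78 to 4.87 times the input within a number. Its mean rose from 471 ± 71.1 to 2006 ± 329 CPM (SD, n = 5 each), a difference of 2.09 ± 0.15 on the log2 scale (SE; edgeR's quasi-likelihood test, adjusted p = 2.19e-08).

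Aldh5a1 (ENSMUSG00000035936, chromosome 13, 24907579 to 24937661, minus strand) codes for succinic semialdehyde dehydrogenase, the second step. Its level in the input was 145, 156, 130, 157 and 127 CPM. In the fraction it was 418, 452, 338, 466 and 423 CPM. The groups did not overlap, and the ratio within a number was 2.60 to 3.34. Its mean rose from 143 ± 14.1 to 419 ± 49.6 CPM (SD, n = 5 each), a difference of 1.55 ± 0.10 on the log2 scale (SE; edgeR's quasi-likelihood test, adjusted p = 1.50e-08). On the opposite strand 2 unnamed genes cover 17.7% of its exon bases, so the same limit on strand holds as for Slc32a1.

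The uptake and breakdown genes did not rise by the same amount. Log2 fold changes of the 15 astrocyte markers ran from 2.51 to 3.39. Slc6a11 (3.005) lay inside that range, and Abat (2.09) and Aldh5a1 (1.55) lay below it. The ratio of Slc6a11 to Abat was 1.51 in the input and 2.83 in the fraction (log2 difference 0.91), and that of Abat to Aldh5a1 was 3.28 and 4.75 (log2 difference 0.54), each higher in 5 of 5 numbers with an exact permutation p of 0.00794, the smallest that 5 against 5 libraries can give, and an adjusted p of 0.0198. Between breakdown and synthesis the ratio of Abat to Gad1 went from 1.35 in the input to 32.1 in the fraction, a 23.7-fold difference (log2 4.57, exact permutation p = 0.00794, adjusted p = 0.0198). The 3 ratios called here missed the threshold when both libraries of 1 number were left out (adjusted p 0.0571 to 0.0714), where 4 against 4 libraries cannot give a p under 0.0286.

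Slc6a13 (ENSMUSG00000030108, chromosome 6, 121300227 to 121337733, plus strand) was the one member with a low level and with a library that decided its direction. Its level in the input was 8.76, 3.25, 4.86, 3.12 and 4.96 CPM. In the fraction it was 28.8, 2.35, 1.32, 0.641 and 0.814 CPM, where the value of fraction 92 rests on 8 counts. Fraction 88 thus stood 12.3 times above the next fraction library, while in the other 4 numbers the fraction was below its input. The mean was 4.99 ± 2.28 CPM over the inputs and 6.78 ± 12.3 CPM over the fractions (SD, n = 5 each). The fitted log2 fold change was 0.48 (adjusted p = 0.686 by edgeR's quasi-likelihood test), and the difference of mean log2 CPM was -1.04 ± 0.997 (SE), of the opposite sign. Without fraction 88 the fitted value was -2.09 with an adjusted p of 0.000757, and without both libraries of number 88 it was -1.79 with an adjusted p of 0.00147.

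The neighbouring gene Slc6a12 (ENSMUSG00000030109), the betaine and GABA transporter, starts 5342 bases after the end of Slc6a13 and had the same library at the top. It stood at 1.74, 0.182, 0.369, 0.541 and 0.531 CPM across the inputs and at 10.3, 0.293, 0.239, 0 and 0.271 CPM in the fraction. The 0 in fraction 981 allows up to 0.128 CPM, the level of 3 counts there, and covers counting error only. Slc6a12 was not called (log2 fold change 1.71, adjusted p = 0.232 by edgeR's quasi-likelihood test), and without fraction 88 its value was -1.53 with an adjusted p of 0.0598.

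Some markers of fibroblasts and leptomeninges, where Slc6a13 is known to be expressed, were also high in fraction 88. Of 14 markers tested 2 were called higher, 4 lower and 8 not called between the groups. The higher count was 1 without fraction 88, number 92 or number 981. The lower count ran from 2 (without number 976) to 6 with single libraries or numbers left out, and was 1 without numbers 976 and 982. In fraction 88, 9 of the 14 (64.3%) had their highest fraction value, against 14.2% of all tested genes, and 3 stood over 5 times above the next fraction library, against 0.136% of all tested genes. Those 3 were Aldh1a2, a retinoic acid enzyme (16.6 times), the organic anion transporter Slc22a6 (13.6 times) and the matrix proteoglycan Fmod (5.26 times). Others did not follow: the collagens Col1a1 and Col3a1 had 8.12 and 2.24 CPM in fraction 88, against 5.78 to 10.3 and 0.837 to 2.64 CPM in the other fraction libraries, and Slc13a4, a sulfate transporter, was higher in fraction 976 (101.8 CPM) than in fraction 88 (37.9 CPM). The summed level of the 14 was 111 to 202 CPM across inputs and 64.6 to 311 CPM across fractions, with Lum, a collagen-binding proteoglycan, at 0 in fractions 92 and 982. In the input too, 8 of the 14 (57.1%) were highest in number 88, against 17.7% of all tested genes. The part of these cells in the Slc6a13 value was not tested.

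**Figure D3:**
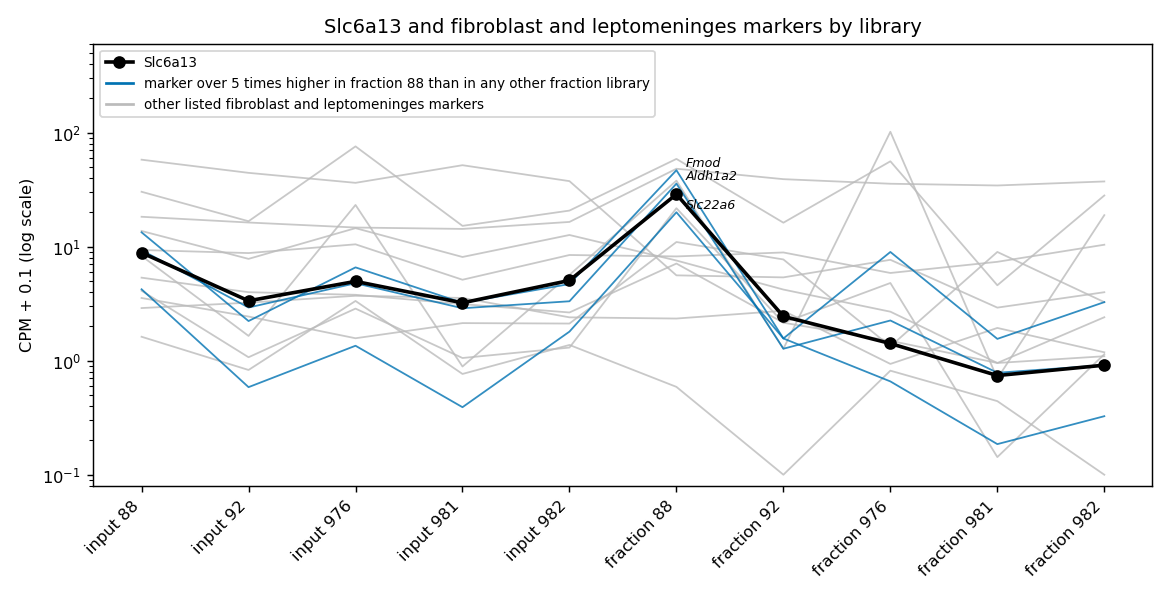
Level of Slc6a13 (black) and 14 fibroblast and leptomeninges markers in each of the 10 libraries, as CPM plus 0.1 on a log axis; lines join the values of 1 gene and carry no order of libraries. Slc6a13, Aldh1a2, Slc22a6 and Fmod (the last 3 in blue) peak in fraction 88, where Slc6a13 reaches 28.8 CPM.

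Set against uptake by Slc6a11, Slc6a13 was lower relative to it in the fraction than in the input. The log2 ratio of Slc6a11 to Slc6a13 was higher by 4.04, in 5 of 5 numbers, with an exact permutation p of 0.0238 and an adjusted p of 0.0476. The call ended when any 1 of 9 of the 10 libraries was left out, each input library and fractions 92, 976, 981 and 982 (adjusted p 0.0635 to 0.0952), or any number (0.0571 to 0.171).

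Levels of different genes are compared per length of their exons (RPKM, the CPM divided by the exon length in kilobases). That length joins the exons of all annotated transcripts, 7639 bases for Gad1, 7748 for Abat and 2797 for Slc32a1. It can exceed the length of the transcript expressed, so the order between genes carries this limit. In the input the order was Slc6a11 at 140 ± 17.1 RPKM, Slc32a1 at 75.3 ± 20.7, Abat at 60.8 ± 9.17, Gad1 at 46.2 ± 11.004, Gad2 at 43.6 ± 15.8, Aldh5a1 at 25.3 ± 2.49 and Slc6a13 at 1.72 ± 0.785 (SD, n = 5). The neighbours from Slc32a1 to Gad2 had overlapping ranges, while Slc6a11, Aldh5a1 and Slc6a13 were apart from theirs. In the fraction the order was Slc6a11 at 1124 ± 181 RPKM, Abat at 259 ± 42.4, Aldh5a1 at 74.3 ± 8.78, Slc32a1 at 13.4 ± 4.63, Gad2 at 8.51 ± 3.11, Gad1 at 8.27 ± 2.03 and Slc6a13 at 2.33 ± 4.24 (SD, n = 5). There Slc6a11, Abat and Aldh5a1 were apart from their neighbours, and Slc32a1, Gad2 and Gad1 overlapped with each other in turn. The ranges of Gad1 and Slc6a13 overlapped only through fraction 88, where Slc6a13 was at 9.90 RPKM against at most 0.808 in the other fractions, and Gad1 was above Slc6a13 in all 5. Slc32a1 was above Aldh5a1 in all 5 input libraries and below it in all 5 fraction libraries.

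**Figure D4:**
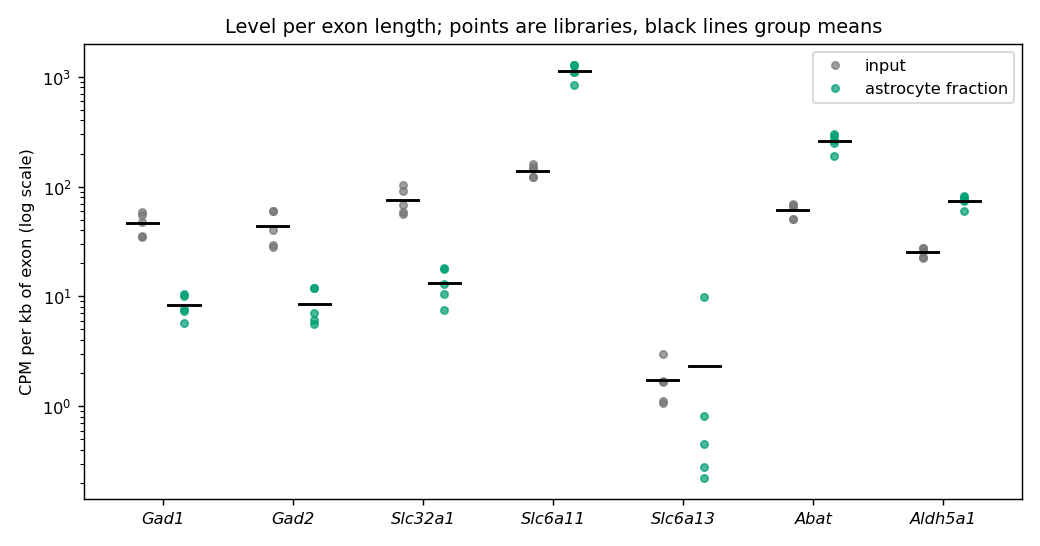
Level per exon length of the 7 members in input and astrocyte fraction (log RPKM axis); points are libraries and black lines are means of 5. Slc6a11 is highest in both groups, and Gad1, Gad2 and Slc32a1 drop below Aldh5a1 in the fraction.

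Genes with the most similar pattern over the 10 libraries were looked up among 8493 tested genes with a mean level in the upper 50%, by Pearson's r of log2 CPM. These correlations describe libraries that share group, depth and composition. Slc6a11 was closest to Ttyh1, Plpp3 and Pgm2 (r above 0.999 for each), and Abat and Aldh5a1 were both closest to the sodium bicarbonate cotransporter Slc4a4 (r = 0.999). Gad1 was closest to Rasgrf2, Serpini1 and Plcxd2 (0.996, 0.995 and 0.995), Gad2 to Celf6, Gng4 and Impact (0.996, 0.995 and 0.995), and Slc32a1 to Usp11, Gprasp2 and Pnmal2 (0.998, 0.996 and 0.995). Slc6a13 had no gene that close: its nearest were Ptgds, a prostaglandin D synthase (0.873), Trp53i11 (0.855) and Ppp1r1a (0.829). With the group means removed the nearest were Ttc28 for Slc6a11 (0.989) and for Aldh5a1 (0.981), Hipk2 for Abat (0.984), Gpld1 for Gad1 (0.983), Rnf215 for Gad2 (0.979), Usp11 for Slc32a1 (0.985) and Trp53i11 for Slc6a13 (0.930).

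The rest of the GABA pathway was read from 10 lists of genes, each described by its counts beside the shares of all tested genes given above (33.1% higher, 37.5% lower, median -0.06). All calls are edgeR's quasi-likelihood test with Benjamini-Hochberg adjustment, and values are means ± SD over 5 libraries. One list rose as a whole, the putrescine list, and one fell as a whole, the peptides and calcium-binding proteins of GABA neurons. The other 8 held calls in both directions.

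GABA can also be made from putrescine, a route through monoamine oxidase B and aldehyde dehydrogenases described for astrocytes. All 7 genes of that list that were tested rose, with a median log2 fold change of 2.02. Aldh2, the mitochondrial aldehyde dehydrogenase, rose from 123 ± 12.7 to 561 ± 71.7 CPM. Aldh9a1, which oxidises aminobutyraldehyde to GABA, rose from 50.4 ± 3.55 to 183 ± 20.3 CPM. The list also held Dao, the D-amino acid oxidase, which is not an enzyme of this route and rose from 2.70 ± 0.744 to 22.6 ± 3.04 CPM.

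Precursor supply split in 2, with 5 of 13 genes higher and 8 lower (median -0.94). Glul, glutamine synthetase, rose from 1664 ± 71.4 to 8907 ± 1347 CPM. Slc1a1, the neuronal glutamate transporter, fell from 105 ± 13.6 to 17.3 ± 3.67 CPM, and the glutaminase Gls2 from 31.1 ± 1.83 to 5.70 ± 1.19 CPM. Of the genes listed beyond Aldh5a1 for succinic semialdehyde and succinate, 9 of 12 rose, 2 fell and 1 was not called (median 0.60). Suclg2, the GTP-linked succinyl-CoA ligase subunit, rose from 20.6 ± 1.69 to 182 ± 14.1 CPM, its partner Suclg1 from 101 ± 8.30 to 222 ± 8.71 CPM, and Adhfe1 from 16.5 ± 2.36 to 159 ± 25.1 CPM. The list also held Glyr1, which is not an established enzyme of this route in mice and fell from 169 ± 5.61 to 134 ± 4.45 CPM. The count of 2 lower genes in this list was 1 without number 976, 981 or 982.

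Among other GABA, taurine, creatine and proline carriers and channels 2 of 6 rose, 2 fell and 2 were not called (median 0.77). The creatine transporter Slc6a8 rose from 125 ± 11.4 to 196 ± 18.6 CPM, and the taurine transporter Slc6a6 fell from 98.3 ± 6.41 to 42.2 ± 9.78 CPM.

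**Figure D5:**
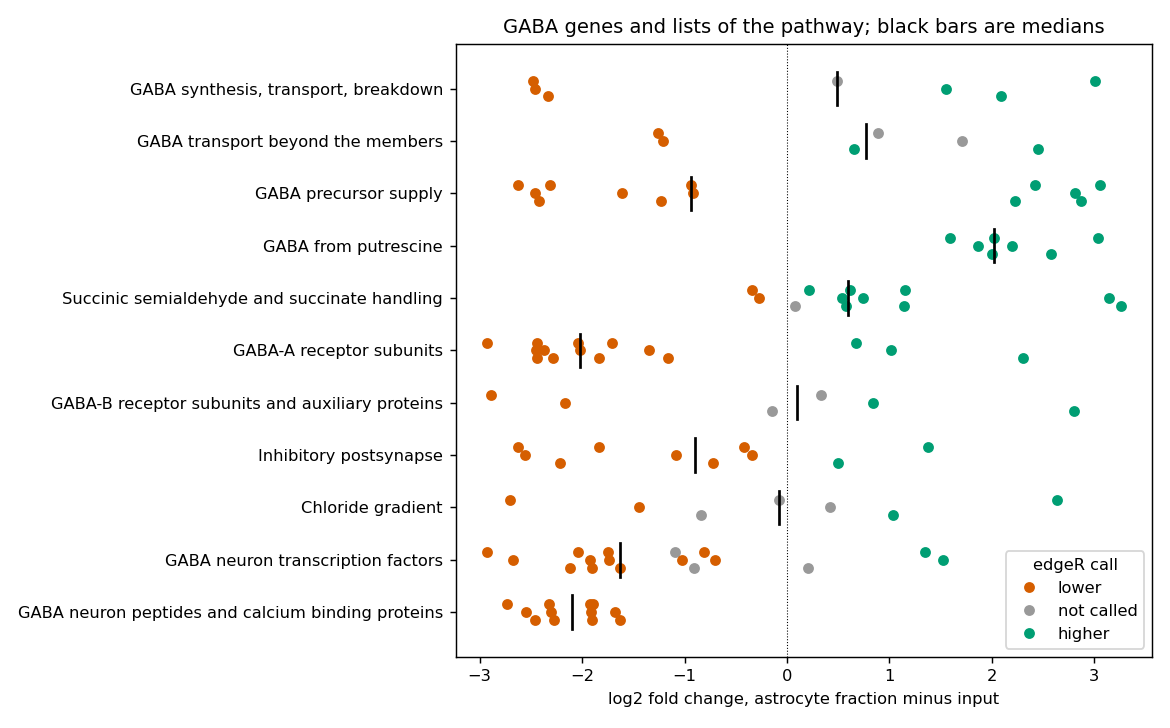
Log2 fold change (astrocyte fraction minus input, horizontal axis) of every tested gene of the members and of the 10 pathway lists; each point is 1 gene, coloured by its call, and black bars are list medians. All 7 genes of the putrescine list lie above 0, all 12 GABA neuron peptides and calcium-binding proteins below 0, and the GABA-A subunits have 3 points above 0.

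Ionotropic GABA-A receptor subunits were mostly lower: 12 of 15 fell and 3 rose (median -2.02). Gabrg1, a gamma subunit, was among those that rose, from 35.3 ± 9.33 to 175 ± 40.6 CPM. Of the GABA-B receptor and its auxiliary proteins 2 of 6 rose, 2 fell and 2 were not called (median 0.09). The subunit Gabbr1 rose from 1051 ± 72.01 to 1875 ± 220 CPM and the auxiliary protein Kctd12b from 4.66 ± 0.701 to 32.9 ± 5.50 CPM, while Kctd8 fell from 9.47 ± 1.42 to 1.90 ± 0.786 CPM.

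At the inhibitory postsynapse 8 of 10 genes fell and 2 rose (median -0.90). Shisa7, an auxiliary protein of GABA-A receptors, fell from 49.7 ± 4.802 to 7.82 ± 2.04 CPM, Iqsec3 from 227 ± 30.2 to 48.4 ± 8.37 CPM and the adhesion protein Nlgn2 from 297 ± 4.30 to 140 ± 13.9 CPM. Gabarap, named for its binding to the receptor and also part of autophagy, rose from 115 ± 8.46 to 299 ± 16.4 CPM. Genes of the chloride gradient, which sets the direction of GABA currents, counted 2 higher, 2 lower and 3 not called of 7 (median -0.08). The neuronal potassium chloride cotransporter Slc12a5 fell from 757 ± 74.0 to 116 ± 10.3 CPM, and its relative Slc12a4 rose from 29.4 ± 5.58 to 182 ± 20.2 CPM, as did the chloride transporter Clcn3 from 180 ± 12.1 to 369 ± 51.9 CPM.

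Most genes listed for GABA neurons fell, as did Gad1, Gad2 and Slc32a1. All 15 pan-neuronal and all 8 dopamine neuron markers fell too, so the fall was not particular to genes of GABA neurons. All 12 peptides and calcium-binding proteins of such neurons fell (median -2.10), among them Pvalb, from 103 ± 4.44 to 18.7 ± 2.56 CPM, Calb2, from 230 ± 39.4 to 47.1 ± 10.5 CPM, and the nitric oxide synthase Nos1, from 59.4 ± 19.5 to 15.8 ± 3.64 CPM. Of 17 transcription factors linked to GABA neurons 12 fell, 2 rose and 3 were not called (median -1.63). Foxp2 fell from 45.2 ± 6.47 to 6.82 ± 1.89 CPM, Lhx5 from 10.3 ± 1.25 to 2.52 ± 0.957 CPM and Lhx1 from 7.26 ± 1.46 to 2.32 ± 0.364 CPM. Nkx2-2, which is also expressed in glial cells, rose from 11.1 ± 1.55 to 28.8 ± 5.34 CPM.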

How the data were processed

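For 10 libraries the authors deposited 1 table that holds raw expected counts per gene, unscaled per the file headers, and normalized log2 values, which the authors centred on the input. Per the submitters' processing notes CASAVA 1.8, DESeq and the build mm10 were used, with no role given. Aligner, counter and strand setting: not given in the sources used here. All deposited genes reach 5 counts throughout 1 or both groups, so rarer genes cannot be assessed. Libraries were made from 25 ng of total RNA with NEB Ultra II, per the labels.

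The expected counts, once rounded, entered edgeR 4.0.16 (R 4.3.3; TMM, filterByExpr minimum count 10, robust quasi-likelihood, prior count 2), all 10 libraries, no block, Benjamini-Hochberg over 17672 genes, called under 0.05. CPM uses TMM-scaled totals, RPKM adds exon length from GENCODE M21, and SEs are those of the group difference in mean log2 CPM. Ratios of members used log2 of counts plus 1 in exact two-sided permutation tests, adjusted over 10 ratios, of which 9 are given. Some genes and a ratio that the rule names are not reported here. Alternatives were DESeq2 1.42.0, limma 3.58.1 on the authors' log2 values, other scalings and filters, a title number block and libraries left out.

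The members, lists and rules were chosen with earlier results of these data known. Named genes are the members, Slc6a12, up to 3 called genes of each list with the smallest adjusted p in its main direction and 1 in the other, and the 3 nearest genes by r (the nearest alone is printed with group means removed and for Abat and Aldh5a1). The fibroblast and leptomeninges markers named singly were chosen after their values were seen. RefSeq promoters matched 6 of 7 members, all but Abat. With group means removed, libraries of the same title number correlated at 0.189 to 0.493, against a mean of -0.08 between different numbers. Input 976 with fraction 982 (0.302) and input 982 with fraction 976 (0.220) stood above number 982 with itself (0.189). By this check the numbers pair the libraries only in part, as 982 was not told apart from 976. The labels do not state a pairing. Chi-square over degrees of freedom was 11.2 or more for any pair within a group, so no library repeats another. On simulated counts for this comparison (17672 genes), the test called 59 of 100 genes changed by 1 on the log2 scale and 86 of 100 changed by 2, with 11 false calls. Those were the only genes changed there, while 70.6% of tested genes were called in the data. The rates therefore need not hold for the data.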

Additional observations from a re-analysis of the deposited data

Results flagged for a closer look

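Within groups of 5 libraries, 34 sets of values were tested for 1 library standing apart (Dixon's test), and 4 were marked. Chance marks about 1 in 20 such sets. Slc6a13 was far above the other fraction libraries in fraction 88, at 28.8 CPM. Slc6a12 was far above the others of its group in both libraries of number 88, with 1.74 CPM as input and 10.3 CPM as fraction. The log2 ratio of Slc32a1 to Gad1 was far below the others in fraction 92, at -1.39, where Slc32a1 had 72 counts.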

How the results depend on the processing

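Gad1, Gad2, Slc32a1, Slc6a11, Abat and Aldh5a1 kept direction and call in all 23 alternatives run. Slc6a13 turned negative with the title number as a replicate block (-0.99), with limma on the deposited log2 values (-1.14) and without number 88 (-1.79) or fraction 88 (-2.09), and single libraries or numbers left out moved it between -2.09 and 0.85. The block changed no call of the members. It moved counts of the lists given in the text: GABA neuron transcription factors lower from 12 to 14, GABA-B genes higher from 2 to 3 and fibroblast markers higher from 2 to 3. The count of lower transcription factors ran from 9 to 13 with libraries or numbers left out, and was 9 with a filter at a mean of 5 CPM. Slc6a12 turned negative with limma (-0.39) and without fraction 88 (-1.53), and with libraries left out it ran from -1.53 to 2.34. DESeq2 gave no adjusted p for Slc6a13, and Slc6a12 had no value with a filter at a mean of 5 CPM or without number 88, where it failed the filter on low counts. Total count scaling moved the median of all genes to -0.34 and called 4293 genes higher and 8317 lower, 34.04% of the calls being higher against 46.9% in the main analysis.

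The paired sign-flip test, a replicate block for the ratios, cannot pass the threshold with 5 pairs (smallest p 0.0625). It gave -0.17 for Slc32a1 to Gad2, and its differences stayed at 4.04 for Slc6a11 to Slc6a13, 0.54 for Abat to Aldh5a1, 0.91 for Slc6a11 to Abat and 4.57 for Abat to Gad1, each with an adjusted p of 0.104. With libraries or numbers left out these ran, in that order, from 3.56 to 4.96, 0.51 to 0.57, 0.88 to 0.93 and 4.48 to 4.65. Differences near 0 changed sign there, between -0.094 and 0.110 for Slc32a1 to Gad1 and between -0.108 and 0.0460 for Slc6a11 to Slc1a3.

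Depth limits Slc6a13 and Slc6a12 most: 3 counts are 0.880 CPM in fraction 92 and 0.120 to 0.136 CPM in the other fraction libraries. Of the lists counted in the text, other counts that moved over 1.5 times were chloride genes lower (4 with total count scaling), other carriers lower (1 with a filter at a mean of 5 CPM) and fibroblast markers, higher 1 with that filter or limma and lower 2 with that filter.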

Other observations

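Some members varied together between title numbers, a pattern chosen after the values were seen. With group means removed, Gad2 correlated with Gad1 at r = 0.968 and with Slc32a1 at 0.920 over the 10 libraries, and Slc6a11 with Aldh5a1 at 0.986 and with Abat at 0.971. Abat correlated with Aldh5a1 at 0.959, and Gad1 with Slc32a1 at 0.835. Pairs across these sets varied: Gad1 correlated with Abat at 0.821, with Aldh5a1 at 0.775 and with Slc6a11 at 0.759. Gad2 correlated with the same genes at 0.698, 0.637 and 0.623. Slc32a1 correlated with Slc6a11 at 0.338, with Aldh5a1 at 0.378 and with Abat at 0.406. Slc6a13 correlated with the other 6 members at -0.10 to 0.30. These are descriptions of libraries that share numbers, composition and depth. Numbers 88 and 981, highest for Gad2, had Slc17a6, the vesicular glutamate transporter of midbrain neurons, at 224 and 265 CPM in the input, against 272 to 398 CPM in the other 3 input libraries. Th, the dopamine synthesis enzyme, was at 161 and 310 CPM in those 2 input libraries and at 229, 65.5 and 75.6 CPM in input 92, 976 and 982.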
